A study of Mus musculus with 4 samples.

Results

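The nuclei described here came from the arcuate nucleus of the mouse hypothalamus (ARC) and carried transcripts of brain endothelial cells, the cells that line blood vessels. They were chosen by a marker gate on single-nucleus RNA counts. Among barcodes whose detected genes numbered above 200 and below 7000, whose UMIs stayed below 25000 and whose mitochondrial share stayed below 15%, a nucleus was taken when at least 3 of the 7 genes Cldn5, Flt1, Slco1a4, Ptprb, Ly6c1, Esam and Pltp had a UMI, when these genes made up 0.2% or more of its UMIs, and when fewer than 2 of 6 genes of mural cells (Rgs5, Vtn, Pdgfrb, Kcnj8, Abcc9 and Higd1b) were detected. A UMI (unique molecular identifier) marks a single captured transcript. The gate took 243 of 39176 kept nuclei (0.620%), out of 41649 deposited barcodes. All mice were wildtype male C57BL/6J, 10 weeks old at collection. DOCA-salt mice had carried a pellet of deoxycorticosterone acetate (DOCA), a steroid with mineralocorticoid action, under the skin for 3 weeks and could drink saline beside water. Sham mice had sham surgery and water alone for the same 3 weeks. Each library pooled nuclei of 2 mice and each treatment had 2 libraries (DOCA-salt 1 and 2, Sham 1 and 2), so a p-value between treatments measures the spread between pools.

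Endothelial cells of brain capillaries form the blood-brain barrier. Tight junctions seal the clefts between them, vesicle transport across them is held low, and solute carriers and ABC pumps move glucose, amino acids and hormones in and drugs out. Signalling through Wnt and beta-catenin maintains this state, pericytes share a basal lamina with the endothelium, and some capillaries at the border of the ARC and the median eminence are fenestrated and leaky.

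The gate took 39 of 10307 kept nuclei of DOCA-salt 1, 133 of 18907 of DOCA-salt 2, 16 of 2203 of Sham 1 and 55 of 7759 of Sham 2. In the same order the libraries held 45126915, 79437196, 53257230 and 59293582 UMIs, of which 71290, 279783, 78296 and 177936 lay in endothelial nuclei. Sham 1 stood apart from the other libraries before any comparison, with the fewest and the deepest nuclei. Its endothelial nuclei had a median of 4551 UMIs, against 1418 in DOCA-salt 1, 1617 in DOCA-salt 2 and 1623 in Sham 2. In every library endothelial nuclei were shallower than the other kept nuclei, whose medians were 2406, 2542, 8261 and 3290 UMIs. The conditions on the percentage of UMIs and on mural genes left out deep nuclei, as given below. The difference in depth therefore depends on the rule and is no result about endothelial cells. The median share of mitochondrial UMIs was 8.60, 9.08, 7.60 and 7.38% in endothelial nuclei and 4.98, 6.14, 5.60 and 6.19% in the others, so it was higher in endothelial nuclei in all 4 libraries. Libraries shared 122 barcodes among kept nuclei and none among endothelial nuclei.

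Levels are given as CPM, for which the UMIs of a gene, summed over the endothelial nuclei of a library, are scaled to a library sum of 1000000. Where 4 values follow each other they stand in the order DOCA-salt 1, DOCA-salt 2, Sham 1 and Sham 2, and a value for other nuclei is the mean ± SD of 4 libraries over the remaining kept nuclei. A count of 3 UMIs, which a count of 0 allows, was worth 42.1, 10.7, 38.3 and 16.9 CPM in endothelial nuclei. These limits cover counting error only.

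The 7 gate genes were chosen by and are part of the rule, so their values describe the nuclei and support no result. Cldn5, the main claudin of brain endothelial tight junctions, stood at 1781, 1190.2, 664 and 859.9 CPM in endothelial nuclei against 23.3 ± 12.7 CPM in other nuclei. Flt1, a receptor for VEGF, stood at 1290.5, 919, 1724 and 1073 CPM against 27.9 ± 9.40 CPM. Slco1a4, an organic anion transporter, stood at 1192, 958, 868 and 708 CPM against 20.3 ± 6.91 CPM. Cldn5 was highest in both DOCA-salt libraries and Flt1 in Sham 1, whereas all 4 values of each gene lay far above the other nuclei. The receptor phosphatase gene Ptprb had 659, 250.2, 677 and 697 CPM and was lowest in DOCA-salt 2. The remaining gate genes were Ly6c1 with 505, 586, 396 and 444 CPM, which encodes a lipid-anchored surface protein, Esam with 309, 293, 166 and 140.5 CPM, which encodes an adhesion molecule of endothelial junctions, and Pltp with 575, 525, 434 and 568 CPM, which encodes a phospholipid transfer protein.

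**Figure D1:**
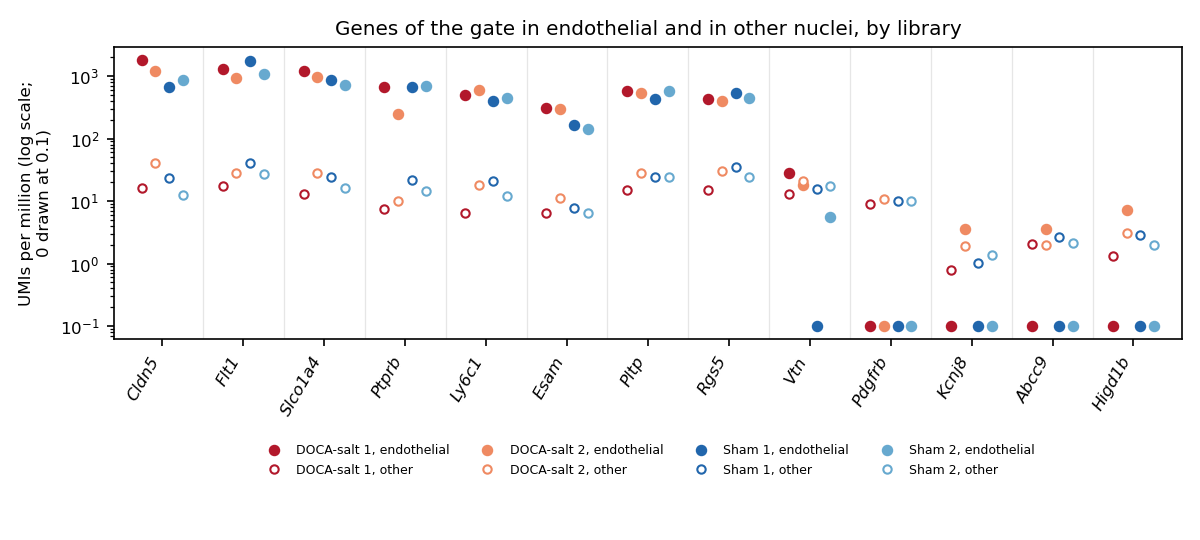
CPM (log axis) of the 7 endothelial and 6 mural gate genes in each of the 4 libraries, filled for endothelial nuclei and open for other nuclei. Cldn5 lies between 664 and 1781 in endothelial nuclei and Pdgfrb at 0 in all 4 libraries.

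Of the 243 nuclei, 43 had 3 gate genes, 65 had 4, 59 had 5, 47 had 6 and 29 had all 7. The gate genes made up a median of 0.520% of a nucleus's UMIs. Just outside the rule, 44 nuclei met the other conditions with 2 gate genes instead of the 43 with exactly 3. Between 0.20 and 0.25% of UMIs lay 29 nuclei inside, and between 0.15 and 0.20% lay 43 outside. Another 445 nuclei had 3 or more gate genes but stayed under 0.2%, and these were deep, with medians of 9592, 9479, 13994 and 12660.0 UMIs. The mural condition divided the nuclei as well: 107 of the 243 had no mural gate gene, 136 had exactly 1, and 78 nuclei that met the endothelial conditions were outside with exactly 2. Rgs5, a regulator of G protein signalling in pericytes, held 261 UMIs inside the gate and stood at 435, 393, 536 and 438 CPM against 26.2 ± 8.73 CPM in other nuclei. Pdgfrb, the pericyte receptor for PDGF-B, had no UMI in the 243 nuclei. Vtn had 28.1, 17.9, 0 and 5.62 CPM, and Kcnj8, Abcc9 and Higd1b were found in DOCA-salt 2 alone, at 3.57, 3.57 and 7.15 CPM.

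The label was checked on 29 endothelial genes outside the gate. Since the nuclei were chosen on genes of the same nuclei, every difference from other nuclei is a description with no weight as a test. In edgeR, with the library as a block, 1529 of 14953 genes (10.2%) passed a false discovery rate (FDR) of 0.05, 954 higher (6.38%) and 575 lower (3.85%) in endothelial nuclei, while 3004 (20.1%) had an unadjusted p under 0.05 and the median log2 fold change was -0.12. With RLE size factors the numbers were 1040 and 384, with library sizes that leave out mitochondrial genes, Bc1 and Gm42418 they were 910 and 812, with DESeq2 they were 824 and 94, and without DOCA-salt 2 there were 932 calls. All 28 genes of the endothelial list that were tested were among the higher ones, with a median log2 fold change of 4.87. Pecam1, an adhesion molecule of endothelial junctions, had 421, 186, 140.5 and 197 CPM against 6.08 ± 1.26 CPM in other nuclei (log2 fold change 5.17, SE 0.28). Cdh5, the cadherin of endothelial adherens junctions, had 70.1, 64.3, 76.6 and 33.7 CPM against 1.98 ± 0.872 CPM (4.88, SE 0.47). Eng, a co-receptor for TGF-beta and BMP ligands, had 267, 254, 294 and 152 CPM against 6.99 ± 2.58 CPM (5.02, SE 0.27). For each of these genes the lowest endothelial value lay above all 4 other values. Sox7, an endothelial transcription factor, was too low to test and had 11.2 CPM in Sham 2 and 0 elsewhere.

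Outside the gate, the 15 genes of highest fold change among those higher in every library were Flvcr2, Crybg1, Gbp5, Ushbp1, Flt4, Cyyr1, Tek, Lsr, Mecom, Vwf, Clec2d, Sox17, Cd93, Adcy4 and She, with log2 fold changes from 5.27 (She) to 6.22 (Flvcr2). Tek, the angiopoietin receptor, had 56.1, 75.1, 89.4 and 112 CPM against 1.99 ± 0.843 CPM in other nuclei. Sox17, a transcription factor of vessel development, had 98.2, 75.1, 38.3 and 73.1 CPM against 1.80 ± 0.899 CPM. Lsr, which recruits proteins to junctions where 3 cells meet, had 112, 71.5, 102 and 67.4 CPM against 1.87 ± 0.234 CPM. Tek was higher in both Sham libraries and Sox17 in both DOCA-salt libraries, while the groups overlapped for Lsr. Tek did not pass between treatments (edgeR, FDR 0.839), and Sox17 had too few UMIs for that test. Some of the others rested on few UMIs, such as Crybg1 with 14.0, 3.57, 12.8 and 22.5 CPM, Gbp5, an interferon-induced GTPase, with 98.2, 7.15, 12.8 and 22.5 CPM, and Flvcr2, a choline transporter of the brain endothelium, with 14.0, 7.15, 38.3 and 50.6 CPM.

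Of 28 endothelial genes with a test, 17 matched a RefSeq promoter (GRCm38.p6, 250 bases before to 50 after the start). Promoters of 3 genes that were called higher than in other nuclei are shown, because they are among the 15 of highest fold change, with GGAAG, the core letters bound by ETS factors, and its reverse complement CTTCC in capitals. Ushbp1 and Cyyr1 lie on the minus strand and Tek on the plus strand, and each sequence is written 5′ to 3′ along its gene.
Ushbp1 (chr8:71395752-71396051): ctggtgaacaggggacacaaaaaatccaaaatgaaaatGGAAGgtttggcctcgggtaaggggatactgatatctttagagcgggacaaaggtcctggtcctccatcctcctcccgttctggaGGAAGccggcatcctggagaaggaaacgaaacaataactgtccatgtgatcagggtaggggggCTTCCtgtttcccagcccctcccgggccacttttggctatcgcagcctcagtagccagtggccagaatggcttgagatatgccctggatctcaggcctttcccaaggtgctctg
Cyyr1 (chr16:85550324-85550623): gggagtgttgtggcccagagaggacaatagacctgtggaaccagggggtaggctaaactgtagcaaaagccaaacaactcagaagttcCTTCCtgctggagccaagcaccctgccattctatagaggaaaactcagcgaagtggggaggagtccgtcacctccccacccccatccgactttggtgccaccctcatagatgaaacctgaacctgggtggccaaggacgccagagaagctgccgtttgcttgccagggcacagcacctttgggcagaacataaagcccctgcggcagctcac
Tek (chr4:94739039-94739338): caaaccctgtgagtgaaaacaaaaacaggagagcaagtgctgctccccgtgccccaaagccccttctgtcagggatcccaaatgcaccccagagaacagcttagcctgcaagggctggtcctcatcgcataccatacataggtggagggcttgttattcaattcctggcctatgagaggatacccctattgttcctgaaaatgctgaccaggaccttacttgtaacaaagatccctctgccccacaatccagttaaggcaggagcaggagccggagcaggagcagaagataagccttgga
The first holds 3 matches, the second 1 and the third none. Over both strands GGAAG was found in 14 of the 17 promoters (82.4%) and in 71.1% of all 27025, CACCC (letters of KLF factors) in 12 (70.6%) and 56.7%, TAAACA (FOX) in 1 (5.88%) and 13.4%, and ACAATG (SOX) in none and 12.8%. CCGGAAG, a longer ETS sequence that contains GGAAG, was in none of the 17 and in 9.12% of all. These shares are descriptions of letters in a window.

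Transporters of the barrier were high as a group. Of 28 transporter genes, 26 were called higher than in other nuclei and none lower, with a median log2 fold change of 3.01. Abcb1a, the efflux pump P-glycoprotein, had 379, 236, 332 and 309 CPM against 7.94 ± 2.85 CPM (5.27, SE 0.24). Abcg2, a second efflux pump, had 224, 154, 243 and 214 CPM against 10.4 ± 1.60 CPM (4.22, SE 0.25). Slc2a1, the glucose carrier GLUT1, had 351, 397, 383 and 461 CPM against 31.5 ± 6.93 CPM (3.64, SE 0.15). These pumps and the glucose carrier showed overlapping DOCA-salt and Sham values. Slc7a5, which carries large neutral amino acids, had 407, 361, 383 and 281 CPM (3.08, SE 0.16). Slco1c1, a carrier of thyroid hormone, had 379, 300.2, 319 and 365 CPM (4.59, SE 0.20). Slc22a8, an organic anion transporter, had 42.1, 92.9, 76.6 and 101 CPM (4.48, SE 0.39). Iron uptake was represented by Tfrc, the transferrin receptor, at 393, 200.2, 243 and 214 CPM against 65.2 ± 7.99 CPM (1.86, SE 0.17), and iron export by Slc40a1 at 98.2, 75.1, 76.6 and 95.5 CPM against 3.57 ± 0.580 CPM. The 2 transporter genes without a call were Slc5a6, a vitamin carrier with 28.1, 28.6, 12.8 and 33.7 CPM, and Lrp1, a lipoprotein receptor with 140.3, 225, 192 and 163 CPM, at levels near those of other nuclei (26.2 and 208 CPM).

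**Figure D2:**
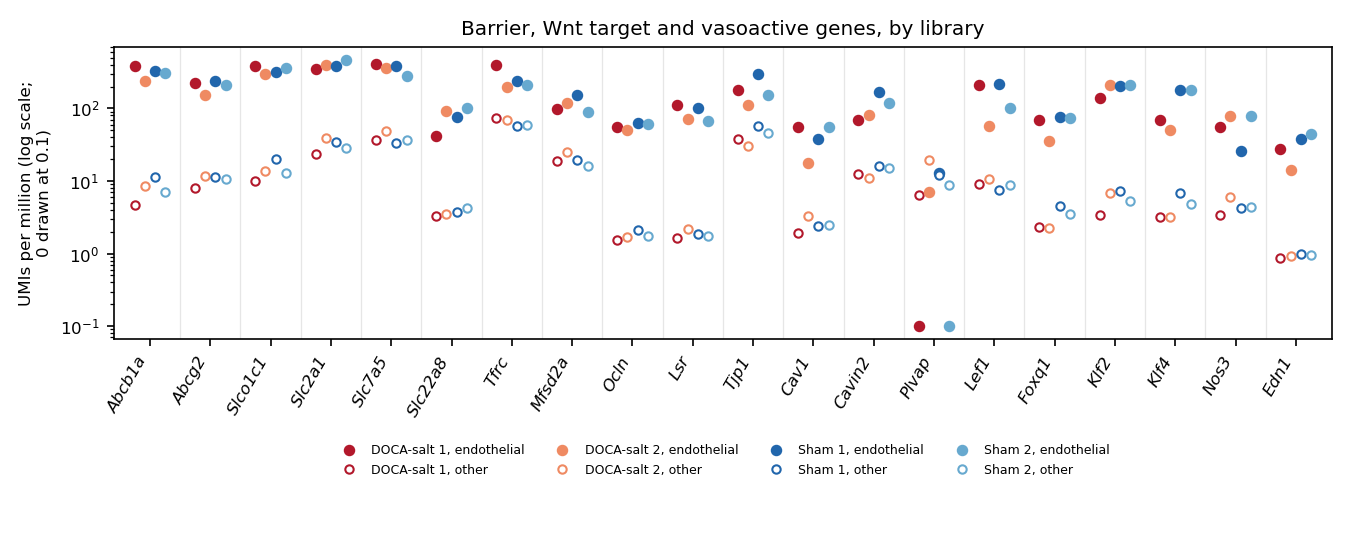
CPM (log axis, 0 drawn at 0.1) of 20 genes of transport, junctions, caveolae, Wnt signalling and vessel tone in each library, filled for endothelial nuclei and open for other nuclei. Abcb1a lies between 236 and 379 in endothelial nuclei, and Plvap is at 0 in DOCA-salt 1 and Sham 2.

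Junction genes divided. Of 14 tested, 9 were called higher and 2 lower, with a median log2 fold change of 1.56. Ocln, the tight junction protein occludin, had 56.1, 50.0, 63.9 and 61.8 CPM against 1.76 ± 0.256 CPM (5.01, SE 0.47). Tjp1, the scaffold ZO-1, had 182, 111, 294 and 152 CPM against 43.2 ± 11.7 CPM (1.98, SE 0.20). Below other nuclei were Jam3, an adhesion molecule, at 14.0, 32.2, 0 and 22.5 CPM against 54.3 ± 7.53 CPM (-1.19, SE 0.36), and Cgn, which encodes cingulin, at 0, 14.3, 25.5 and 0 CPM against 33.1 ± 2.47 CPM (-1.71, SE 0.52). Cldn1 had no UMI. Of 9 genes of caveolae and vesicle transport, 6 were called higher. Mfsd2a, a lipid transporter that holds vesicle transport low, had 98.2, 118, 153 and 89.9 CPM against 20.0 ± 3.90 CPM (2.44, SE 0.27). Caveolin 1 (Cav1) had 56.1, 17.9, 38.3 and 56.2 CPM against 2.51 ± 0.551 CPM (3.84, SE 0.53), while Cavin2, a coat protein of caveolae, had 70.1, 82.2, 166 and 118 CPM (2.96, SE 0.29). Plvap, the diaphragm protein of fenestrated vessels, was at 0, 7.15, 12.8 and 0 CPM, which is 3 UMIs in all, against 11.6 ± 5.62 CPM in other nuclei. The rule counts genes such as the tight junction gene Cldn5, so these values do not show how common fenestrated vessels were in the tissue.

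Among signalling genes, 13 of 18 tested genes of the Wnt list were called higher. Lef1, the transcription factor that acts with beta-catenin, had 210.4, 57.2, 217 and 101 CPM against 8.98 ± 1.21 CPM (3.71, SE 0.31). Foxq1, a forkhead factor of brain endothelium, had 70.1, 35.7, 76.6 and 73.1 CPM (4.28, SE 0.45). The related factor gene Foxf2 had 70.1, 32.2, 12.8 and 11.2 CPM (5.00, SE 0.64). Lef1 was lowest in DOCA-salt 2 with overlapping groups, Foxq1 was lower and Foxf2 higher in both DOCA-salt libraries, and both forkhead genes had too few UMIs for a test between treatments. Fzd6, a Frizzled receptor, had 56.1, 32.2, 63.9 and 50.6 CPM (4.04, SE 0.49). Fewer genes of the VEGF and angiopoietin list were called, 6 of 13, among them the receptors Flt4, Tek, Tie1 and Kdr and the co-receptor Nrp1. Kdr, the main VEGF receptor, had 196, 78.6, 63.9 and 84.3 CPM against 4.08 ± 0.761 CPM (4.54, SE 0.37). The ligand gene Vegfa, which had no call, had 28.1, 39.3, 51.1 and 39.3 CPM against 55.2 ± 14.1 CPM. In the Notch and ephrin list 8 of 14 were called higher. Notch4, the endothelial Notch receptor, had 14.0, 50.0, 25.5 and 73.1 CPM (3.85, SE 0.47), and Epas1, a hypoxia-inducible factor, had 351, 297, 396 and 371 CPM (3.41, SE 0.16). In the TGF-beta and BMP list 10 of 15 were called higher, among them the receptor Acvrl1 at 210.4, 107, 102 and 135 CPM (4.97, SE 0.34) and the BMP target Id1 at 393, 365, 332 and 275 CPM (4.88, SE 0.21).

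Genes of vessel tone and of blood flow sensing were called higher in 12 of 28 cases. Nos3, the endothelial nitric oxide synthase, had 56.1, 78.6, 25.5 and 78.7 CPM against 4.47 ± 1.10 CPM (3.79, SE 0.41). Edn1, the vasoconstrictor peptide endothelin 1, had 28.1, 14.3, 38.3 and 44.96 CPM against 0.942 ± 0.0474 CPM (4.91, SE 0.63). Klf2, a transcription factor that responds to flow, had 140.3, 211, 204 and 208 CPM against 5.72 ± 1.77 CPM (5.07, SE 0.30). Nos3 was lowest in Sham 1 with overlapping groups, and Edn1 was lower in both DOCA-salt libraries on 2, 4, 3 and 8 UMIs, which were too few for a test between treatments. Ramp2, a subunit of the adrenomedullin receptor, had 196, 268, 204 and 174 CPM (4.25, SE 0.25), and the stretch-gated channel Piezo1 had 28.1, 14.3, 12.8 and 33.7 CPM (4.43, SE 0.69). The angiotensin receptor Agtr1a had no UMI in endothelial nuclei, and Ace, which makes angiotensin II, had 42.1, 7.15, 0 and 5.62 CPM against 10.2 ± 1.89 CPM.

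Receptors for corticosteroids were detected in all 4 libraries without a call against other nuclei. Nr3c1, the glucocorticoid receptor, had 182, 122, 204 and 107 CPM against 107 ± 22.8 CPM, and Nr3c2, the mineralocorticoid receptor that DOCA acts on, had 14.0, 3.57, 25.5 and 39.3 CPM against 16.7 ± 3.89 CPM. The Nr3c2 values of DOCA-salt 1, DOCA-salt 2 and Sham 1 lay under the 42.1, 10.7 and 38.3 CPM that 3 UMIs are worth. They are too few to give a level in endothelial cells. Hsd11b2, which inactivates glucocorticoids in mineralocorticoid target cells, and the epithelial sodium channel genes Scnn1a, Scnn1b and Scnn1g had no UMI. Of 17 tested genes of the corticosteroid list, 7 were called higher, among them the steroid-induced genes Sgk1, a kinase, with 70.1, 104, 102 and 56.2 CPM (1.12, SE 0.26), and Zbtb16, a transcription factor, with 28.1, 21.4, 63.9 and 73.1 CPM (1.44, SE 0.38). Of 17 osmotic and ion transport genes, 2 were called higher and 2 lower. Atp1b1, a subunit of the sodium pump, was lower at 1066, 1154, 894 and 1090.3 CPM against 1537 ± 119 CPM (-0.55, SE 0.10).

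Inflammatory and interferon genes had 12 of 21 calls, all higher. Cxcl12, a chemokine, had 393, 311, 396 and 337 CPM against 12.5 ± 2.75 CPM (4.80, SE 0.20), and Ifitm3, an antiviral membrane protein, had 126, 82.2, 102 and 101 CPM (4.15, SE 0.35). The classical major histocompatibility gene H2-K1 had 126, 157, 115 and 101 CPM (2.49, SE 0.25). Icam1, an adhesion molecule for leukocytes, Nfkbia, Irf1 and Il1r1 were also called higher. Sele, Ccl2 and Lcn2 of the same list had no UMI. Vcam1, another such adhesion molecule, had 14.0, 0, 51.1 and 50.6 CPM against 10.7 ± 2.50 CPM, with 0 in DOCA-salt 2. In the basal lamina and adhesion list 14 of 21 were called higher. Sparc, a secreted matrix protein, had 1080.1, 1679.9, 2452 and 2046 CPM against 763 ± 264 CPM (1.24, SE 0.09), Fn1, fibronectin, had 407, 293, 115 and 230.4 CPM against 10.2 ± 2.31 CPM (4.72, SE 0.23), and Hspg2, perlecan, had 56.1, 46.5, 51.1 and 56.2 CPM (4.73, SE 0.48).

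Vessel segments were read from lists of arterial, capillary, venous and fenestrated genes. At least 2 capillary genes were detected in 203 of the 243 nuclei (83.5%), 2 venous genes in 77 (31.7%), 2 fenestrated genes in 83 (34.2%) and 2 arterial genes in 46 (18.9%), with many nuclei in more than 1 class (67 capillary and venous). Thinned to 1000 UMIs, which left out 13, 41, 0 and 8 nuclei of the libraries, the counts in the other 181 were 104, 26, 30 and 16. A detected gene can also come from free RNA, so these counts describe the profiles and assign no nucleus to a segment. The summed arterial list had 1178, 365, 307 and 1129.6 CPM against 220.3, 178, 222 and 239 CPM in other nuclei, high in DOCA-salt 1 and Sham 2, and Mgp made up 32.8% of it. The capillary list had 3156, 2491, 3295 and 2619 CPM against 551, 567, 601 and 556 CPM, led by Spock2 (33.7%). The venous list had 869.7, 1008, 919.6 and 686 CPM against 519.8, 916, 798 and 517 CPM, with 59.5% of it from Tmsb10, an actin-binding gene that many cell types express. In all 3 lists the treatments overlapped with the gate as reported, while with the looser gate both DOCA-salt values of the capillary list lay below both Sham values. The fenestrated list had 743, 636, 651 and 809 CPM against 212, 206, 305 and 293 CPM, led by Plpp3 (30.0%). Its groups overlapped with the gate as reported too, but with the looser gate, after thinning and without nuclei with genes of other types both DOCA-salt values lay below both Sham values. Of the fenestrated list, Esm1 and Exoc3l2 had no UMI beside the 3 of Plvap, while the 4 genes of this list called higher than in other nuclei were Igfbp7, Emcn, Vim and Plpp3, which endothelial cells of other segments also express.

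The arterial sums of DOCA-salt 1 and Sham 2 held much Mgp in few nuclei. Mgp, a matrix protein of arterial cells, had 645, 39.3, 0 and 438 CPM, which is 135 UMIs in 14 nuclei. Of these UMIs, 46 lay in 4 nuclei of DOCA-salt 1, 11 in 5 of DOCA-salt 2, none in Sham 1 and 78 in 5 of Sham 2, where 72 were in 1 nucleus. Of the 14 nuclei 6 also had Cytl1, another arterial gene, against none of the other 229, and 4 had the arterial kinase gene Bmx against 4. Vwf, of the venous list, was in 7 of the 14 and 23 of the 229. Of capillary genes, Mfsd2a was in none of the 14 and in 52 of the 229, Slc7a5 in 5 and 111, and Tfrc in 4 and 87. The median depth was 2448 UMIs against 1662. Elastin (Eln) was in 4 of the 14 nuclei and 2 of the others and the smooth muscle actin gene Acta2 in 6 and 3, and these genes were looked at after the values were seen.

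RNA of other cell types was present in the endothelial nuclei. Of 243, 114 held at least 3 genes and 0.5% of UMIs of another type's list: 52 of astrocytes, 51 of neurons, 29 of oligodendrocytes, 1 of mural cells beyond the gate and 0 of microglia. The neuron list was summed to 3451, 4160.4, 4099.8 and 3883 CPM, below the 4779, 5552, 5866 and 5307 CPM of other nuclei in every library, and its most abundant gene was Snap25 (19.0% of the list). The astrocyte list was at 3296, 3989, 3269.6 and 3338 CPM against 1835, 2496, 2488 and 2339.8 CPM, above other nuclei in every library, and Slc1a2, the glutamate transporter, made up 39.3% of it. The oligodendrocyte list was at 1557, 2305, 3359 and 2675 CPM against 860.0, 2024, 3067 and 3069.6 CPM, above other nuclei in all libraries but Sham 2. Microglial genes were at 140.3, 225, 51.1 and 152 CPM. The border macrophage list was at 28.1, 7.15, 12.8 and 0 CPM against 1.98, 1.30, 2.69 and 1.83 CPM, which is 5 UMIs in all (2 of Pf4, 2 of Cd163 and 1 of F13a1), and its genes Mrc1, Cbr2, Ms4a7 and Lyve1 were at 0. Mural genes outside the gate were at 533, 347, 128 and 230.4 CPM against 48.6, 75.4, 77.5 and 62.0 CPM, with Ebf1 as 44.6% of the list and Anpep at 0. In the fibroblast list, at 631, 529, 307 and 140.5 CPM, Ptgds made up 90.1% and Col3a1 and Bnc2 had no UMI. Without the 114 nuclei 1115 genes passed against other nuclei, 599 higher and 516 lower.

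**Figure D3:**
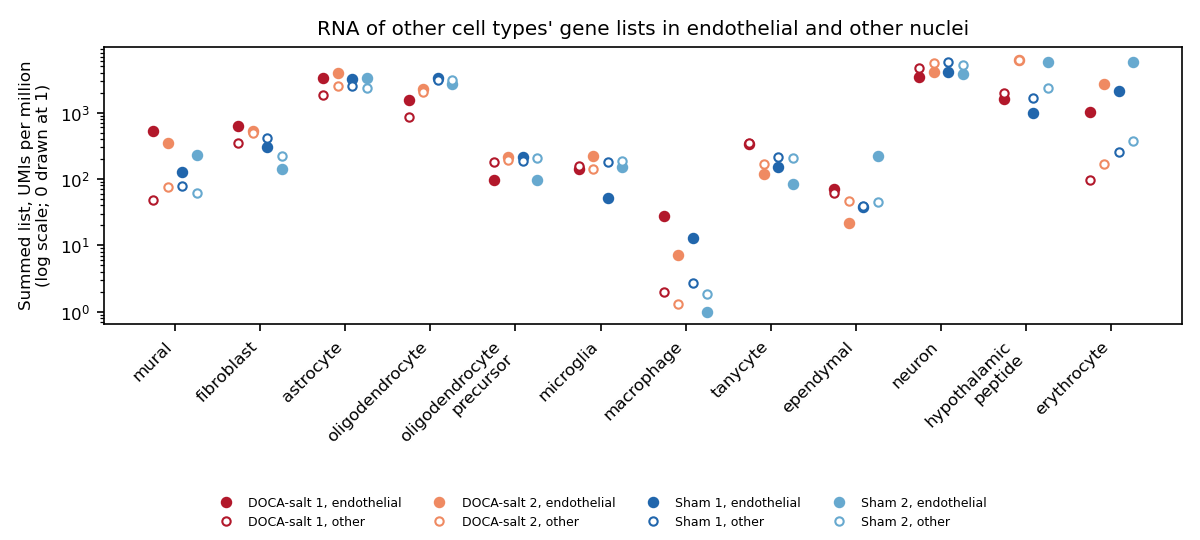
Summed CPM (log axis, 0 drawn at 1) of marker lists of 12 other cell types in each library, filled for endothelial nuclei and open for other nuclei. The erythrocyte list lies above other nuclei in all 4 libraries and the neuron list below.

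Hemoglobin and neuropeptide transcripts differed between libraries. The erythrocyte list was at 1010.0, 2702, 2146 and 5783 CPM in endothelial nuclei against 97.3, 166, 259 and 370.5 CPM in other nuclei. Hbb-bs, a beta globin, had 547, 1355, 817 and 2484 CPM (3.61, SE 0.11) and made up 45.6% of the list. Hba-a1, an alpha globin, had 224, 676, 702 and 1501 CPM, or 527 UMIs in 55 nuclei, 112 of them in 1 nucleus. The list was lowest in DOCA-salt 1 and highest in Sham 2. The peptide list was at 1627, 6316, 996 and 5755 CPM against 1959, 6300.4, 1676 and 2327 CPM, and 645 of the 647 UMIs of Pmch, which encodes melanin-concentrating hormone, lay in DOCA-salt 2. All 578 UMIs of Hcrt, the orexin gene, were in DOCA-salt 2 too, with 421 in 1 nucleus. Vip had no UMI.

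Beside all other nuclei, 2 narrower sets were compared with the endothelial nuclei as descriptions, and both comparisons were chosen after the data were seen. Against 7838 nuclei with astrocyte, oligodendrocyte or microglial genes, 1048 of 12472 genes (8.4%) passed in edgeR, 647 higher (5.19%) and 401 lower (3.22%), or 697 in all without Sham 2. The comparisons with other and with glial nuclei use the same endothelial sums, and 609 genes were higher in each, which is 63.8% of the 954 and 94.1% of the 647. Klf2 had 191 ± 33.8 CPM against 3.85 ± 1.02 CPM in these glial nuclei (log2 fold change 5.62, SE 0.29) and Abcb1a had 314 ± 59.6 CPM against 7.52 ± 1.32 CPM (5.29, SE 0.22). Of the astrocyte list 8 of 10 and of the oligodendrocyte list 10 of 10 were lower in endothelial nuclei, for instance Slc1a2 with 1549.5 ± 266 CPM against 1895 ± 458 CPM (-0.33, SE 0.09). The glial nuclei were chosen by these lists and the microglial list, with at least 3 genes and 0.5% of UMIs of a list. Lower values of list genes, which are part of the 401, follow from that choice and support no result. Of the corticosteroid list 4 of 15 were higher than in glial nuclei, without Sgk1, Zbtb16 and Tsc22d3, and Sgk1, which did not pass, stood at 83.0 ± 23.6 CPM against 112 ± 54.9 CPM (-0.43, SE 0.21). Ednrb, an endothelin receptor of astrocytes, passed as lower, at 52.7 ± 38.7 CPM against 166 ± 19.9 CPM (-1.30, SE 0.21). Its log2 fold change ran from -2.02 to -1.07 with a library left out, and the endothelial nuclei of Sham 1 held no Ednrb UMI.

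A set of 315 nuclei met the endothelial conditions but had 2 or more mural gate genes (44, 198, 26 and 47 in the 4 libraries), and they were deeper, with medians of 2543, 3422, 9142 and 4322 UMIs. Nuclei that met a mural gate without endothelial genes numbered 3, 5, 0 and 2, under the minimum of 10 per library, so no comparison with mural nuclei alone was run. Of 6431 genes, 93 (1.45%) passed in edgeR and 662 (10.3%) had an unadjusted p under 0.05, with 14 calls higher (0.218%) and 79 lower (1.23%) in the endothelial nuclei, and the number was 57 without DOCA-salt 1 and 43 without DOCA-salt 2. No gene of the endothelial list passed among 27, with a median log2 fold change of -0.26 against 0.02 over all tested genes, and 7 had an unadjusted p under 0.05, all lower. Of 24 transporter genes 1 passed, Slc22a8, with 78.2 ± 26.1 CPM against 164 ± 36.8 CPM (-0.83, SE 0.22). Of mural genes outside the gate 5 of 7 were lower in the endothelial nuclei, such as Notch3, the mural Notch receptor, with 16.7 ± 8.04 CPM against 113 ± 22.8 CPM (-2.46, SE 0.34), and Atp13a5, a pericyte transporter, with 9.38 ± 8.08 CPM against 186 ± 54.9 CPM (-3.93, SE 0.35). Matrix and adhesion genes were lower in 4 of 15 cases, among them the integrin gene Itga1 (-1.82, SE 0.22) and Lamb2, a laminin chain (-0.89, SE 0.20). All 4 tested globin genes and all 4 tested fibroblast genes were lower too, with Dcn, decorin, at 5.49 ± 5.38 CPM against 76.8 ± 45.5 CPM (-3.58, SE 0.54). Higher in the endothelial nuclei were 4 of 14 peptide genes (Avp, Oxt, Hcrt and Sst), the myelin gene Mbp with 736 ± 356 CPM against 496 ± 133 CPM (0.54, SE 0.13) and Gm42418 with 9762 ± 7214 CPM against 6075 ± 4111 CPM. Over all 4 libraries, 494 of the 582 endothelial UMIs of Oxt and 272 of the 554 of Avp lay in 1 nucleus each. The log2 fold change of Oxt ran from 1.49 to 4.22 with a library left out.

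The first question between treatments was whether DOCA-salt moved the share of endothelial nuclei. It was 0.378% of kept nuclei in DOCA-salt 1 (95% exact binomial interval 0.269 to 0.517), 0.703% in DOCA-salt 2 (0.589 to 0.833), 0.726% in Sham 1 (0.416 to 1.18) and 0.709% in Sham 2 (0.534 to 0.922). DOCA-salt 1 was low, and DOCA-salt 2 lay just under both Sham libraries. The means were 0.541 ± 0.230% and 0.718 ± 0.0123% (SD, n = 2 each), a difference of -0.177 percentage points (exact two-sided permutation test, p = 0.33, the smallest that 2 libraries against 2 allow). Without DOCA-salt 1 the difference was -0.0141 points and without DOCA-salt 2 it was -0.339. Thinned to 1000 UMIs before the gate the shares were 0.396, 0.745, 1.23 and 0.805%, and before the limits on barcodes they were 0.446, 0.820, 0.570 and 0.709%, where the groups overlapped. Without the nuclei that held genes of other types they were 0.213, 0.344, 0.499 and 0.40%. The groups also overlapped with the looser gate, at 0.854, 1.38, 1.41 and 1.28%. With no limit on mural genes they overlapped as well, at 0.805, 1.75, 1.91 and 1.31%. The gate counts detected transcripts, so fewer endothelial cells and less RNA per nucleus cannot be told apart.

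**Figure D4:**
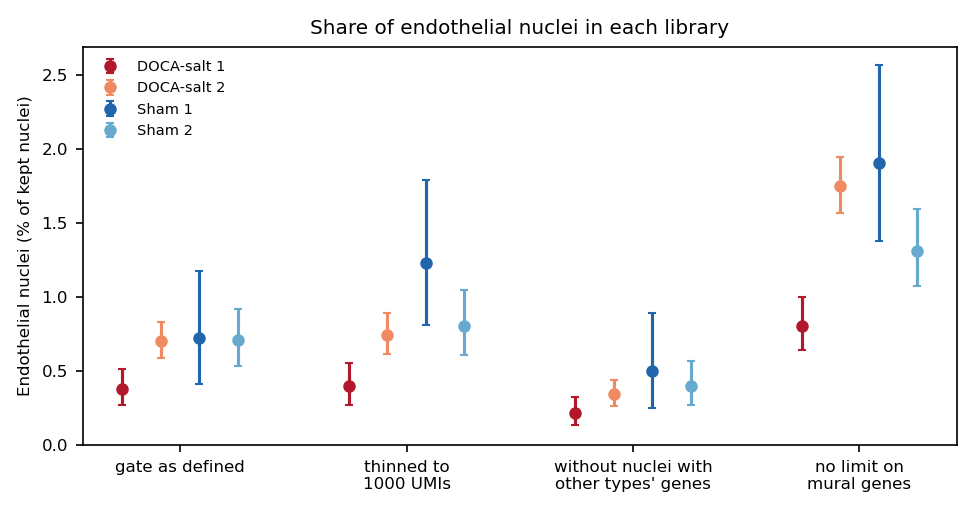
Endothelial nuclei as a percentage of kept nuclei in each library under 4 settings, with 95% exact binomial intervals. DOCA-salt 1 is lowest in each setting, and the other 3 libraries lie between 0.703 and 0.726% with the gate as reported.

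Expression in DOCA-salt and Sham endothelial nuclei was then compared over all genes. Of 3179 genes with enough UMIs, 1 (0.0315%) passed an FDR of 0.05 in edgeR and 233 (7.33%) had an unadjusted p under 0.05, while DESeq2 also called 1 and had 39 at that p. The 7 gate genes, on which the nuclei were chosen, are included in these counts. Both DOCA-salt values lay above both Sham values for 545 genes (17.1%) and below them for 613 (19.3%). The gene that fell was Bc1 (chr7:144914470-144914637, plus strand, GRCm38), a noncoding RNA that neurons carry to dendrites. It had 295, 422, 3206 and 3434 CPM, so both DOCA-salt libraries were far below both Sham libraries (log2 fold change -3.15, SE 0.29, FDR 3.35e-06). Bc1 passed under every alternative that was run, with an FDR of at most 0.00115, and the log2 fold change stayed between -3.41 and -2.98 when each library was left out in turn. Bc1 was low in the DOCA-salt libraries outside the endothelium too. In all other nuclei of the same libraries it had 208, 312, 2216 and 3133 CPM (-3.39, SE 0.33, FDR 0.166), and the difference between both effects was 0.16 (SE 0.22, FDR 1). In those other nuclei 0 of 16539 genes passed in edgeR and 1396 (8.44%) had an unadjusted p under 0.05. The number of calls in endothelial nuclei rested on single libraries: it was 38 without DOCA-salt 1, 20 without DOCA-salt 2, 9 without Sham 1 and 10 without Sham 2, where the remaining library of a group is assumed to vary like the other group.

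**Figure D5:**
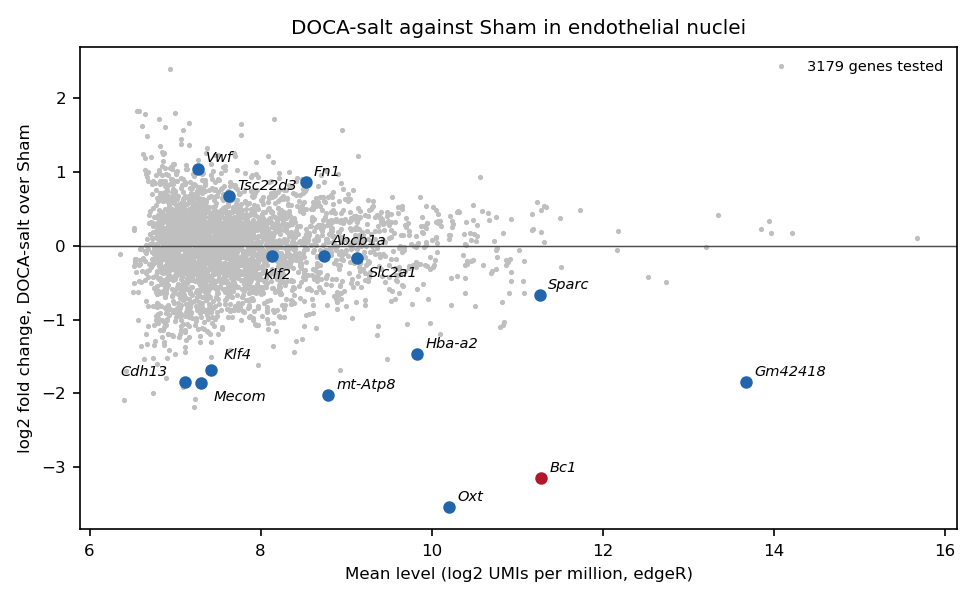
Log2 fold change of DOCA-salt over Sham against the mean level (log2 CPM) for 3179 genes in endothelial nuclei, with 15 genes named and Bc1, the gene that passed, in red. Bc1 lies at -3.15, and the barrier genes Abcb1a and Slc2a1 lie close to 0.

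No gene of the 17 endothelial lists passed. Of 104 distinct genes tested from them, 2 were higher and 5 lower at an unadjusted p under 0.05 (6.73%), and their median log2 fold change was -0.04, against -0.00 over all tested genes. Mecom (chr3:29951296-30548008), a transcription factor of arterial endothelium, had 56.1 and 42.9 CPM in DOCA-salt and 153 and 179.8 CPM in Sham libraries (-1.86, SE 0.45, FDR 0.245 in edgeR). Klf4 (chr4:55527143-55532466), a factor that responds to flow like Klf2, had 70.1 and 50.0 CPM and 179 and 179.8 CPM (-1.68, SE 0.43, FDR 0.245 in edgeR). Cdh13 (chr8:118283733-119324921), a cadherin of the arterial list, had 42.1 and 39.3 CPM and 89.4 and 179.8 CPM (-1.85, SE 0.50, FDR 0.276 in edgeR). In all 3 genes both DOCA-salt values were under both Sham values, and none of them passed. Without DOCA-salt 1 all 3 passed, with an FDR of 0.012 for Mecom, 0.017 for Klf4 and 0.0341 for Cdh13 in edgeR, and Klf4 also passed under a looser gate (FDR 0.0125). Klf2 had values of 140.3, 211, 204 and 208 CPM with no such order (-0.13, SE 0.36).

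No matrix gene passed. Sparc had 1080.1, 1679.9, 2452 and 2046 CPM (-0.67, SE 0.27, FDR 0.626 in edgeR), lower in both DOCA-salt libraries. Fn1 had 407, 293, 115 and 230.4 CPM (0.86, SE 0.38, FDR 0.641 in edgeR), higher in both, and its log2 fold change was 0.53 without Sham 1 and 1.66 without Sham 2. Bsg, basigin, which the endothelium of the barrier expresses strongly, had 1978, 2441, 1635 and 1450.0 CPM (0.54, SE 0.25), also higher in both. Vwf, the von Willebrand factor, had 252, 82.2, 38.3 and 78.7 CPM (1.05, SE 0.56), with the highest value in DOCA-salt 1. With a library left out, its log2 fold change ran from 0.32 (without DOCA-salt 1) to 2.02. No barrier gene passed. The transporter list had 17 tested genes with a median log2 fold change of 0.14, and Abcb1a was at -0.14 (SE 0.35), Slc2a1 at -0.17 (SE 0.32) and Mfsd2a at -0.01 (SE 0.45). Junction genes had a median of -0.25 over 5 tested genes, with Tjp1 at -0.64 (SE 0.42), and at -0.08 without DOCA-salt 2, -0.20 without Sham 1 and -1.02 without Sham 2. Ocln, Cav1, Edn1, Nr3c2, Fkbp5 and Zbtb16 had too few UMIs for the test.

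Among genes that corticosteroids induce, Tsc22d3, a mediator of glucocorticoid action, had 168, 161, 115 and 95.5 CPM (0.67, SE 0.40, FDR 0.736 in edgeR), higher in both DOCA-salt libraries. Sgk1 had 70.1, 104, 102 and 56.2 CPM (0.39, SE 0.50) with overlapping groups, and Klf9 had 140.3, 57.2, 179 and 169 CPM (-1.10, SE 0.45, FDR 0.626 in edgeR), lower in both DOCA-salt libraries but at -0.22 without DOCA-salt 2. The corticosteroid list as a whole had a median of 0.01 over 6 genes. Nos3 was at 0.27 (SE 0.62) and Ece1, which cleaves the endothelin precursor, at 0.16 (SE 0.40). The osmotic list had a median of -0.00 over 10 genes and the inflammatory list 0.11 over 8. Genes outside the endothelial lists were also among those of low p. The mitochondrial gene mt-Atp8 had 154, 111, 358 and 629 CPM (-2.03, SE 0.38, FDR 0.0616 in edgeR). Gm42418, a noncoding gene that overlaps ribosomal RNA, had 7112, 1423, 18353 and 12162 CPM (-1.85, SE 0.43). Both were lower in both DOCA-salt libraries. Hba-a2, an alpha globin, had 168, 475, 524 and 1383 CPM (-1.47, SE 0.42). Mbp, a myelin gene, had 323, 597, 1149 and 877 CPM (-1.05, SE 0.33), and these 2 were lower in both DOCA-salt libraries as well. None of the 4 passed, with FDRs from 0.0616 to 0.517 in edgeR, but each passed in at least 1 alternative. With a library left out, mt-Atp8 passed in all cases but that without Sham 2 and Gm42418 in all 4, where it ran from -3.42 without DOCA-salt 1 to -1.004 without DOCA-salt 2. Hba-a2 ran from -2.47 without DOCA-salt 2 to -0.46 without Sham 2 and passed without DOCA-salt 2 and without Sham 1, and Mbp passed without DOCA-salt 2 (FDR 0.0292 in edgeR). Other transcripts were higher in both DOCA-salt libraries and did not pass either. Ptgds, which leads the fibroblast list, had 575, 486, 294 and 101 CPM (1.57, SE 0.41, FDR 0.245 in edgeR), with 2.34 without Sham 1 and 0.94 without Sham 2. Slc32a1, the vesicular GABA transporter of neurons, had 168, 247, 63.9 and 73.1 CPM (1.65, SE 0.41). The peptide genes Sst, somatostatin, and Penk, proenkephalin, were at 1.71 (SE 0.45) and 2.40 (SE 0.63), and Sst was at 3.64 without Sham 2. Of the 9 peptide genes tested, 2 were higher and 2 lower at an unadjusted p under 0.05, and the lower ones were Oxt and Pomc. Oxt was at -3.54 (SE 0.79, FDR 0.241 in edgeR), but at -0.02 without Sham 2 and at -6.66 without DOCA-salt 2, and it passed when any library but Sham 2 was left out. Pomc, proopiomelanocortin, was at -1.91 (SE 0.62, FDR 0.521 in edgeR), at -2.95 without DOCA-salt 1, where it passed, and at -0.46 without DOCA-salt 2. Without DOCA-salt 1, Ptgds, Slc32a1 and Sst passed. The part of these transcripts in the other differences was not tested.

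Last, the effect of treatment in endothelial nuclei was set against that in all other nuclei of the same libraries, with an interaction term in edgeR. Of 14953 genes, 3 (0.0201%) passed and 396 (2.65%) had a p under 0.05, all 3 being neuropeptide genes lower in the endothelial term. Oxt (chr2:130576173-130577054), the oxytocin gene, had 14.0, 193, 140.5 and 2899.9 CPM in endothelial and 8.94, 913, 178 and 409 CPM in other nuclei (-4.43, SE 0.26, FDR 4.57e-61). Avp (chr2:130580620-130582554), the vasopressin gene, had 0, 947, 153 and 1557 CPM and 9.82, 506, 79.7 and 186 CPM (-1.78, SE 0.22, FDR 5.44e-12). Tac2 (chr10:127724478-127731768), the neurokinin B gene, had 28.1, 14.3, 51.1 and 202 CPM and 72.3, 67.9, 62.3 and 69.5 CPM (-3.17, SE 0.56, FDR 5.97e-05). The highest endothelial value in each was that of Sham 2. In that library 494 of the 516 Oxt UMIs and 272 of the 277 Avp UMIs lay in 1 nucleus each. Of the 46 Tac2 UMIs of all 4 libraries, 29 were in 1 nucleus. No gene passed in edgeR without Sham 2 (405 genes with an unadjusted p under 0.05), without DOCA-salt 2 (409) or after thinning (228), nor in DESeq2 (96). No endothelial gene was among the 3.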

How the data were processed

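Per the submitters' processing notes, the authors aligned reads with Cell Ranger 3.0.1 to mm10 (GRCm38) and deposited whole-number UMI counts for 31053 genes per barcode. Barcodes were kept under the limits given above. No doublet caller was run, and nuclei with genes of other types were left out as an alternative. The members and the 32 gene lists were chosen with earlier results of these data known. Counts were summed per library and tested in edgeR 4.0.16 (R 4.3.3) with the quasi-likelihood test, TMM normalization, filterByExpr and Benjamini-Hochberg adjustment (FDR under 0.05), with the library as a block between kinds of nuclei. The study's own test took nuclei as replicates and was not used. Alternatives were DESeq2 1.42.0, RLE size factors, no filter, library sizes without mitochondrial genes, stricter gates (4 genes, 0.4% of UMIs) and looser gates (2 genes, 0.1%), thinning, the replicate block, and each library left out. Shares were computed in Python 3.11.15 (scipy 1.17.1, numpy 2.4.6). The pipeline was tested on simulated counts in which some genes had a log2 change of 2. It recovered 91.4% of them between treatments, 65.0% against other nuclei and 32.2% for the interaction term. The counts were drawn with the same dispersion for all genes of a comparison.

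Named genes were the 13 gate genes, the 15 of highest fold change against other nuclei outside the gate, up to 4 called members per list by level, the 3 of lowest p per list and up to 10 calls per direction between treatments, the 10 interaction calls of lowest p, and fixed genes of steroid response, vessel tone and the barrier. Other genes given values or counts were chosen after their values were seen. Gene positions are those of GENCODE vM21. With 2 libraries a group, replicate numbers were not taken as pairs. Some items are not reported here.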

Additional observations from a re-analysis of the deposited data

Results flagged for a closer look

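The effect of treatment differed between endothelial and other nuclei of the same libraries for 3 genes in edgeR. The interaction term was -4.43 on the log2 scale for Oxt, -1.78 for Avp and -3.17 for Tac2. With a library left out it ran from -4.93 to -1.61 for Oxt, from -12.9 to 0.10 for Avp and from -3.48 to -1.59 for Tac2, with the value nearest 0 without DOCA-salt 2 for Oxt and without Sham 2 for Avp and Tac2. In each gene the endothelial value of Sham 2 was the highest of the 4 libraries. In Sham 2, 494 of the 516 Oxt UMIs and 272 of the 277 Avp UMIs lay in 1 nucleus each. Of the 46 Tac2 UMIs of all 4 libraries, 29 lay in 1 nucleus. The nucleus need not be the same one for each gene.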

How the results depend on the processing

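Endothelial nuclei were few, and a gene with no UMI may still stand at up to 42.1 CPM in DOCA-salt 1. The 1 call between treatments became 10 with no filter on low counts, 23 with the looser gate, 10 after thinning, 16 with no limit on mural genes and 9 to 38 with a library left out. With the replicate block it became 2, Bc1 and Oxt; deviations of same-numbered libraries correlated at r = 0.112 in endothelial nuclei (1168 genes) and -0.294 in all kept nuclei (15334 genes), so the numbers were not taken as pairing. The 1529 calls against other nuclei became 918 with DESeq2, 579 after thinning, 4626 with no limit on mural genes and 932 to 1242 with a library left out, and with the stricter gate the split turned to 714 higher and 818 lower. The 1048 against glial nuclei became 673 with DESeq2, 376 after thinning and 697 to 893 with a library left out. The 93 against nuclei with endothelial and mural genes became 21 with DESeq2, 141 with no filter, 49 with the stricter and 389 with the looser gate, 61 without nuclei with genes of other types, 33 after thinning and 43 to 103 with a library left out. The 3 interaction calls became 0 with DESeq2 (96 at an unadjusted p under 0.05), 1 with the stricter and 12 with the looser gate, 0 after thinning in edgeR (228), 17 with no limit on mural genes and 0 to 4 with a library left out. The interaction of Avp was 1.03 with the stricter gate and between -12.9 and 0.10 with a library left out, the lowest without DOCA-salt 2 and the highest without Sham 2. DOCA-salt minus Sham for the arterial list was 53.4 CPM, but -472 with the stricter gate, -1.22 with the looser gate, -495 without nuclei with genes of other types and -358 to 465 with a library left out. The capillary list was at -133 CPM, but 321 with the stricter gate, 339 without nuclei with genes of other types, 620.1 with no limit on mural genes and -472 to 205 with a library left out, and -255 with the looser gate (exact permutation test, p = 0.33). The fenestrated list was at -40.5 CPM, but 25.1 with the stricter gate, 94.8 with no limit on mural genes and -119 to 38.5 with a library left out. It was -94.5 with the looser gate, -112 after thinning and -90.2 without nuclei with genes of other types (exact permutation test, p = 0.33 in each). The cause of these changes was not tested. The difference in share kept its sign in every alternative, from -0.448 points after thinning to -0.00657 before the limits on barcodes. Of single named values, 1414 kept direction and side of the threshold, 47 gained it, 85 lost it and the 2 of Avp reversed. The comparison with mural nuclei alone was not run, because no library held 10 of them. No limit on mural genes was chosen after seeing the data.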
